A study of Mus musculus with 6 samples.

Results

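The genes described here are 6 ADAM proteases (Adam9, Adam10, Adam12, Adam15, Adam17 and Adam19) and 2 ADAMTS proteases (Adamts1 and Adamts5) of mouse myoblasts. They were taken by name: every probe set that the platform annotation assigns to exactly 1 of the 8 genes was included, which gave 21 of the 45101 probe sets on the array. The genes had been selected on earlier readings of the same arrays, namely their signals and their differences between induced and noninduced arrays. Their differences are therefore given as a description with intervals, with no test, and they support no statement about the family. Of the 21 probe sets, 18 had a mean signal above the median probe set of the array (23.4 units), the limit used for testing; 1 probe set of Adam10 and 2 of Adamts5 lay below it.

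The cells were C2C12, an established mouse line of skeletal muscle precursors, with an integrin alpha7 gene that tetracycline switches on. Both groups carried the construct and grew undifferentiated for 36 h in medium containing 20% fetal bovine serum. The noninduced group (3 arrays) received no tetracycline, and the induced group (3 arrays) received it at 1 µg/ml. Tetracycline and induction therefore cannot be told apart, and the labels do not name the species of the construct or the number of clones.

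ADAM proteases are zinc enzymes anchored in the cell membrane. Most cut other membrane proteins close to the cell surface and so release growth factors, receptors and adhesion molecules, a process called shedding, while the disintegrin domain can bind integrins. ADAMTS proteases are secreted relatives with thrombospondin repeats that act on the extracellular matrix. In muscle, ADAM12 (meltrin alpha), ADAM9 (meltrin gamma) and ADAM19 (meltrin beta) are also known as meltrins, a name from their description in myogenic cells, and ADAM12 is known for its part in myoblast fusion and muscle regeneration.

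Some facts of the whole set of arrays bear on all values below. The probe set of Itga7, the construct's target, gave 811, 778 and 786 on the noninduced arrays and 675, 727 and 676 on those labelled induced, so it did not show the induction. Whether it can read the construct's transcript is not known, so the labels could not be checked with it. For that reason the treated arrays are called "labelled induced" throughout. As inferred from hybridisation times, noninduced replicates 1, 2 and 3 and induced replicate 1 shared a fluidics run, and induced replicates 2 and 3 formed another. Every noninduced array was scanned before any of the others, so the group and the order of scanning cannot be told apart. Array medians were 25.0, 27.7 and 25.9 on the noninduced arrays and 24.9, 22.9 and 22.9 on those labelled induced. Every array labelled induced thus had a lower median than every noninduced array. Precision is limited by there being 3 arrays in a group. Of 7 myoblast markers 6 were above the signal limit, with Des, Myod1, Cdh15 and Myf5 among them, and Msc was below it (12.1 and 11.3). The myoblast list and its sum include Itga7, the construct's own target. Markers of other cell types were lower but not all absent. Of 8 genes of differentiated muscle 3 were above the limit, of 6 macrophage markers 4, of 5 endothelial markers 1, of 4 epithelial markers 2 and of 3 adipocyte markers with a probe set none. The leukocyte marker Ptprc was near 0 (4.76 and 5.77). Summed signals ran from 4622 to 4667 on noninduced and 4328 to 4633 on labelled induced arrays for the myoblast list, from 299.6 to 379.9 and 309 to 342 for differentiated muscle, and from 306 to 371 and 291 to 325 for macrophages. Their part in the values below was not tested. Fewer cells with a transcript and less transcript per cell cannot be told apart in such samples.

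Adam9, the meltrin gamma gene, showed the largest difference among the probe sets that stand for the 8 genes (for each gene, the one with the highest mean signal). Its single probe set, 1416094_at, read 1025, 949 and 999 on the noninduced arrays and 1243, 1260.2 and 1269 on the arrays labelled induced. Every array labelled induced lay above every noninduced array, and the gap between the groups was wider than the range within either. The means were 991 ± 38.4 and 1258 ± 13.4 (SD, n = 3 each), a 1.27-fold difference (log2 0.34, SE 0.052, 95% interval 0.23 to 0.45). Induced replicate 1, placed in the same run as the noninduced arrays, gave 0.32 against them, and the 2 arrays of the second run gave 0.35.

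In the limma fit over the whole array 0.200% of all 22518 probe sets (45 in number) were past an adjusted p of 0.05, and of the 18 member probe sets 1 was, that of Adam9. Because the gene was chosen with this contrast known, that count is no test of Adam9 and nothing is read from it. Nor is anything read from its place past the threshold under 8 of 18 alternatives. Without a variance trend, or without induced replicate 1, 0 probe sets of the whole array passed. With no signal limit, or without noninduced replicate 2, 1 passed, and it was not Adam9. In those fits almost every probe set was lost, so the loss says nothing of Adam9 in particular. Adam9 was also lost with a block for the replicate number (5 passed). The same held without noninduced replicate 3 (8 passed), induced replicate 2 (11) or induced replicate 3 (49). With a block for the fluidics run, or within the first run alone, the difference rests on induced replicate 1 (0.32). The log2 difference ranged from 0.31 without noninduced replicate 2 to 0.43 after median centring, in which each array is centred on its own median signal.

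Adam10, the protease that makes the ligand-induced cut in Notch receptors and cuts N-cadherin, was next. Its brightest probe set, 1428103_at, read 729, 644 and 665 on the noninduced arrays against 892, 799 and 762 on those labelled induced. The groups did not overlap, but the spread was wider than for Adam9, and induced replicate 1 stood highest. The means were 679 ± 44.3 and 817 ± 67.0 (SD, n = 3 each; log2 0.26, SE 0.073, 95% interval 0.10 to 0.42). The difference was 0.39 for induced replicate 1 against the noninduced arrays of its own run and 0.20 for the 2 arrays of the second run.

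The other probe sets of Adam10 pointed the same way with less separation. Probe set 1450105_at gave 206, 238 and 247 against 239, 299 and 300.3 (log2 0.26, SE 0.104), and induced replicate 1 fell inside the noninduced range, so that within the first run the difference was 0.05. Probe set 1450104_at gave 111, 165 and 158 against 159, 182 and 170.2 (log2 0.23, SE 0.131), with noninduced replicate 1 well under the rest. The 2 dimmer probe sets followed each other over the 6 arrays (r = 0.83), but the brightest one followed them loosely (r = 0.25 and 0.13). Probe set 1460083_at read at most 11.9 on any array and is not interpreted.

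**Figure D1:**
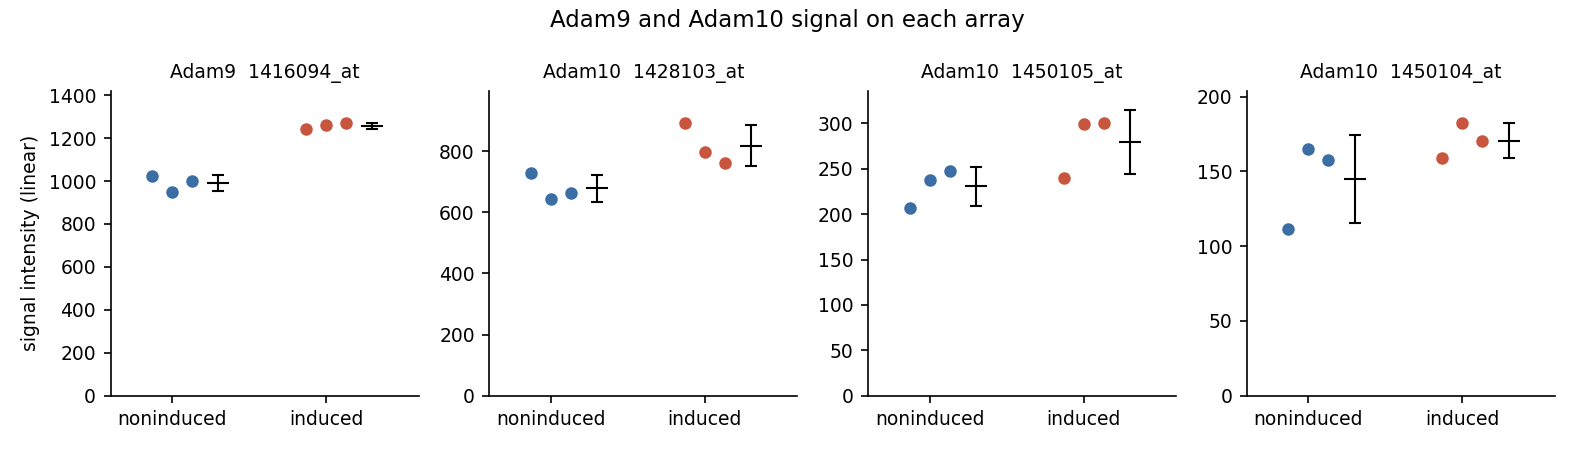
Linear signal intensity of the Adam9 probe set and the 3 Adam10 probe sets above the signal limit on each array. Points are single arrays (left to right replicates 1 to 3), and the bar to the right of each group is the mean ± SD of 3 arrays. The groups were apart for Adam9 (949 to 1025 against 1243 to 1269) and for Adam10 probe set 1428103_at (644 to 729 against 762 to 892), and they overlapped for the remaining panels.

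Adam17, also called TACE, is the closest relative of ADAM10 and releases tumour necrosis factor and several ligands of the EGF receptor. It showed small positive differences with all 3 probe sets. Probe set 1421859_at read 324, 331 and 371 on the noninduced arrays and 358, 353 and 363 on those labelled induced (log2 0.07, SE 0.075, 95% interval -0.10 to 0.23). All 3 arrays labelled induced fell inside the noninduced range. Probe set 1421858_at read 308, 346 and 327 against 318, 317 and 409, where the higher mean came from induced replicate 3 (log2 0.08, SE 0.099). Probe set 1421857_at read 193, 219 and 215.0 against 198, 216 and 242 (log2 0.06, SE 0.095), again with induced replicate 3 highest. Within the first run the 2 dimmer probe sets were at -0.04 and -0.07. An interval up to 0.23 for the brightest probe set does not show that Adam17 was the same in both groups, and the difference between Adam10 and Adam17 was not tested.

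The promoters of Adam10 and Adam17 are shown because these sheddases are each other's closest relatives. The groups were apart for 1 of the 3 Adam10 probe sets above the limit. They overlapped for the others and for all 3 of Adam17. Over all probe sets tested 20.3% had groups apart, so no difference between the 2 genes is read from this. A link between the promoters and the readings was not tested. Promoters of 5 of the 8 genes (Adam10, Adam15, Adam17, Adam19 and Adamts1) were matched by symbol in RefSeq, build GRCm38.p6, each holding 250 bases before and 50 after an annotated start. Both are printed 5′ to 3′ on the strand of the gene, Adam10 at chr9:70678732-70679031 (plus strand) and Adam17 at chr12:21373583-21373882 (minus strand). Capitals mark GC boxes, the letters GGGCGG on either strand, which may overlap.
Adam10: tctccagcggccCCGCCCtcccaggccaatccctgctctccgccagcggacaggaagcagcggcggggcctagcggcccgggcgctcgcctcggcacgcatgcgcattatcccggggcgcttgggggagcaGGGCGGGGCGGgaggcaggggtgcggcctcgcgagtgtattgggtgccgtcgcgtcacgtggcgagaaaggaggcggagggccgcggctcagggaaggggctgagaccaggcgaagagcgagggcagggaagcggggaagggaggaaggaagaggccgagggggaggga
Adam17: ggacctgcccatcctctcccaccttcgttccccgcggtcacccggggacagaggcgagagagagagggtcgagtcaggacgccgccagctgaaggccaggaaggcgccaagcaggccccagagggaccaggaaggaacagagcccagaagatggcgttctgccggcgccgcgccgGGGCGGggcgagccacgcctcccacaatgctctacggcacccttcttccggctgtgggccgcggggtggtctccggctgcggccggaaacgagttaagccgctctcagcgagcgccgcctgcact
The Adam10 window held 3 GC boxes, 2 CCAAT boxes (CCAAT) and 32 CpG dinucleotides with 73.3% G and C. The Adam17 window held 1 GC box, no CCAAT box and 30 CpG dinucleotides with 70.0% G and C. Each held 1 E-box (CANNTG) and neither held a TATA box (TATAAA) or an AP-1 motif (TGANTCA). Of the promoters not printed, that of Adam15 held 5 GC boxes, that of Adamts1 held 3 GC boxes and 1 TATA box, and the 3 annotated starts of Adam19 held 0, 1 and 0 GC boxes. Over all 32851 promoter windows of that length, counting either strand, 35.7% held a GC box, 37.4% a CCAAT box, 72.3% an E-box, 13.6% a TATA box and 7.81% an AP-1 motif, and the median G and C content was 52.7%. Such matches are letters in a window and do not show a bound factor.

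Adam12, the meltrin alpha gene, did not separate the groups with either probe set. The brighter, 1421172_at, read 221, 202 and 227 on the noninduced arrays and 208, 245 and 207 on those labelled induced. Of the latter, 2 lay inside the noninduced range and induced replicate 2 above it, so that the means of 217 ± 13.0 and 219.8 ± 21.5 (SD, n = 3 each) were nearly equal (log2 0.02, SE 0.093, 95% interval -0.19 to 0.22). The sign turned to -0.06 without induced replicate 2, to -0.03 without noninduced replicate 2 and to -0.05 within the first fluidics run. Probe set 1421171_at read 68.2, 94.0 and 103 against 85.5, 108 and 98.2 (log2 0.13, SE 0.148), with noninduced replicate 1 the lowest array, and within the first run it was at -0.03. The 2 probe sets followed each other weakly over the 6 arrays (r = 0.30).

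Adam19, the meltrin beta gene, whose protein sheds neuregulins, gave probe sets of opposite sign. Probe set 1418402_at was very even on the noninduced arrays (185, 184 and 183), while the arrays labelled induced read 192, 196 and 147. Induced replicates 1 and 2 were thus above all noninduced arrays and induced replicate 3 was far below them (log2 -0.05, SE 0.110, 95% interval -0.29 to 0.19). Without induced replicate 3 the difference was 0.07, within the first run it was 0.06, after median centring it was 0.04, and as the mean of both probe sets it was 0.05. Probe set 1418403_at read 66.3, 50.3 and 53.4 against 70.4, 68.1 and 56.3 (log2 0.16, SE 0.149), again with induced replicate 3 the lowest of its group.

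**Figure D2:**
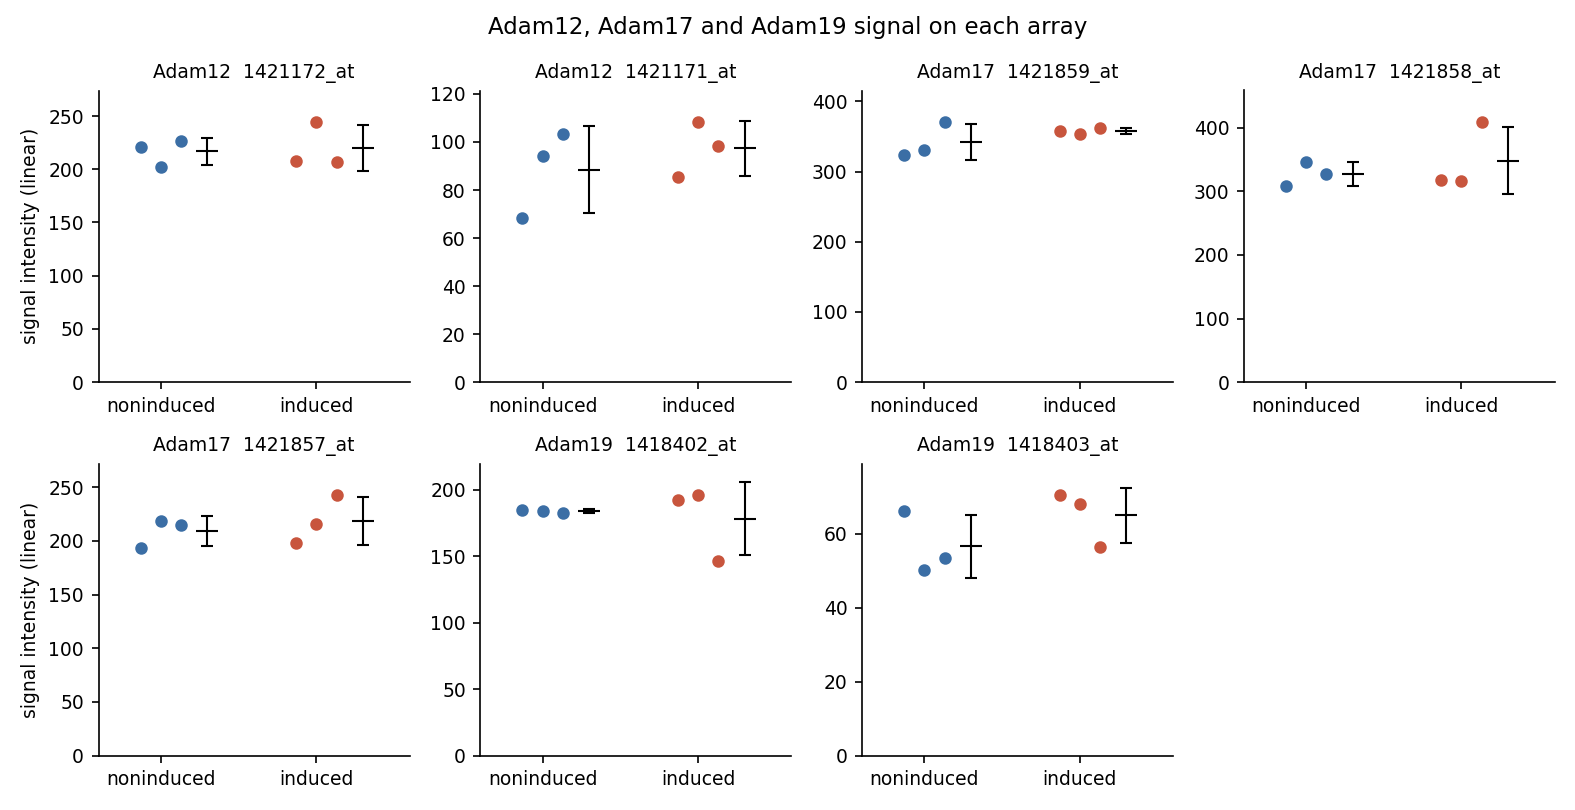
Linear signal intensity of every probe set of Adam12, Adam17 and Adam19 on each array. Points are single arrays (left to right replicates 1 to 3), and bars are the mean ± SD of 3 arrays. The groups overlapped in each of the 7 panels, and induced replicate 3 was low for Adam19 probe set 1418402_at (147) and high for Adam17 probe set 1421858_at (409).

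Adam15, or metargidin, was read by 4 probe sets that did not share a direction. The brightest, 1438760_x_at, has a suffix that marks probes shared with other transcripts, so its signal may not be that of Adam15 alone. It read 279.8, 267 and 229.5 on the noninduced arrays and 249, 249 and 241 on those labelled induced, all 3 inside the noninduced range (log2 -0.06, SE 0.088, 95% interval -0.25 to 0.13). The sign turned to 0.03 after median centring. Probe set 1416080_at, with a suffix that marks no sharing, read 71.9, 64.8 and 54.6 against 65.4, 73.5 and 73.6 (log2 0.13, SE 0.138). Probe set 1454206_a_at read 61.9, 102.7 and 93.4 against 61.7, 73.5 and 64.8, the most negative of the 18 (log2 -0.28, SE 0.164), although noninduced replicate 1 was as low as the lowest array labelled induced. The dimmest, 1425170_a_at, ranged from 20.7 to 56.2 within the noninduced group alone (log2 -0.11, SE 0.253).

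The ADAMTS genes were dim and scattered. Adamts1, whose secreted protease cuts versican and aggrecan, read 64.2, 59.3 and 71.9 on the noninduced arrays and 68.3, 78.8 and 54.7 on those labelled induced with probe set 1450716_at. The highest and the lowest reading both came from the group labelled induced (log2 0.03, SE 0.149, 95% interval -0.29 to 0.36), and the sign turned to -0.07 without induced replicate 2 and to -0.02 without noninduced replicate 2. Adamts5, the main aggrecan-cleaving enzyme of mouse cartilage, read 45.8, 48.0 and 58.4 against 57.7, 44.8 and 63.1 with 1456404_at (log2 0.09, SE 0.161, 95% interval -0.26 to 0.44). Its probe set 1422561_at read 31.2, 54.4 and 37.1 against 39.0, 38.6 and 43.3 (log2 0.00, SE 0.187). The mean over all 4 Adamts5 probe sets gave -0.05.

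Among the probe sets under the signal limit, 1450658_at of Adamts5 read 22.9, 25.0 and 35.6 on the noninduced arrays and 15.9, 21.7 and 13.0 on those labelled induced. These groups did not overlap, and the sign was opposite to that of the brightest Adamts5 probe set, 1456404_at (0.09), but signals this dim were not tested. Probe set 1456969_at was at most 3.31 on any array. In the RefSeq table Adamts1 and Adamts5 are near neighbours on chromosome 16 with 1 annotated gene, 4930556C24Rik, between them, and over the 6 arrays their readings did not move together (r = -0.38).

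Taking each gene by its brightest probe set, 6 of the 8 differences were above 0 and 2 below, from -0.06 for Adam15 to 0.34 for Adam9, with a median of 0.05, against -0.01 for all 10775 genes above the limit. Median centring raised every difference by the same amount, so that the median of all probe sets tested went from -0.01 to 0.08, the median of the 8 genes was 0.14 and all 8 were above 0. By probe set, 14 of 18 were above 0, which counts several probe sets of the same gene. Of all 10775 genes above the limit, 47.8% were above 0. The groups did not overlap for 2 of the 18, both higher on the arrays labelled induced, and for none lower. Over all probe sets tested 20.3% did not overlap, 9.65% higher and 10.6% lower. The shares for the members are printed beside this background only as a description, since the contrast was known when the genes were chosen.

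**Figure D3:**
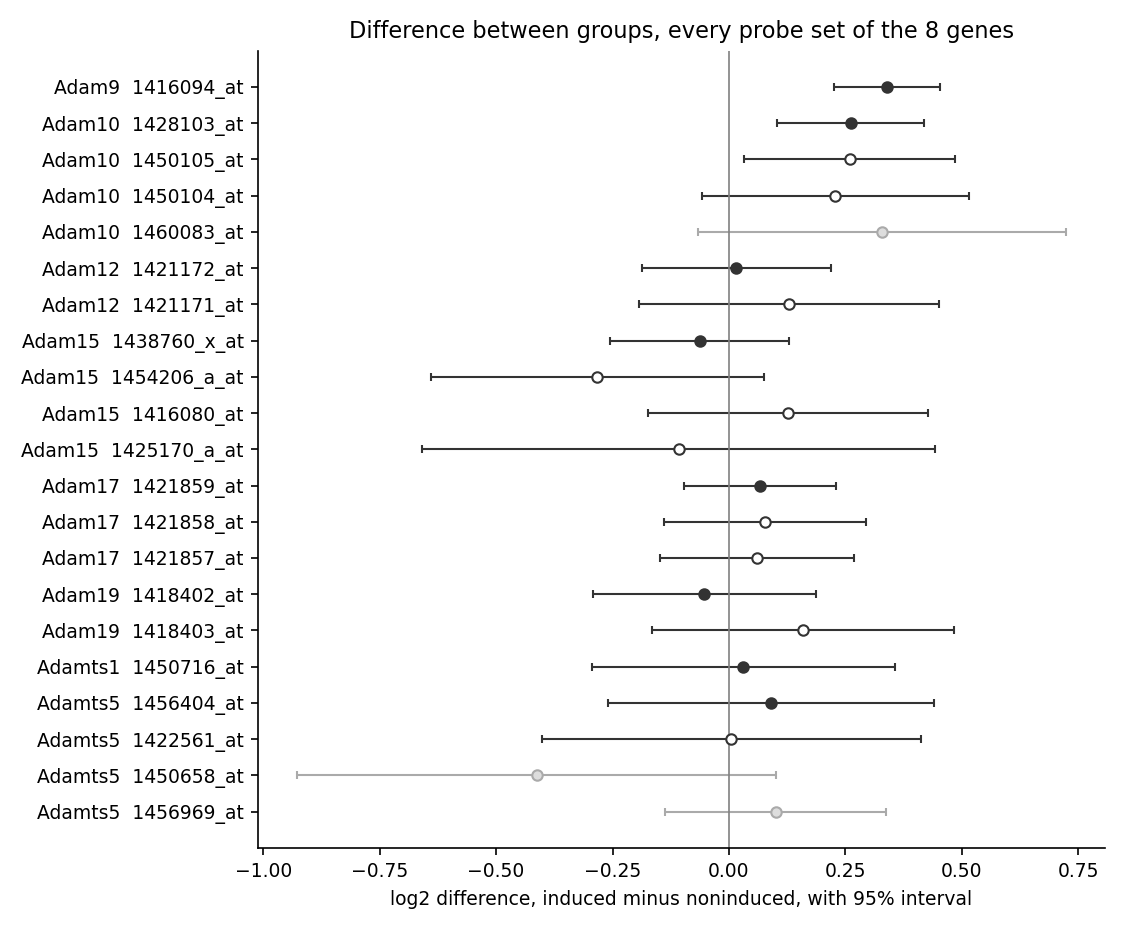
Log2 difference (labelled induced minus noninduced, on the log2(signal + 16) scale) of all 21 probe sets with its 95% interval from limma. Filled points stand for the gene's brightest probe set, open points for its other probe sets, and grey points for the 3 under the signal limit. Adam9 (0.34) and 2 probe sets of Adam10 (0.26 each) have intervals above 0, and the intervals of the remaining probe sets include 0.

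The genes did not share a pattern over the arrays. On induced replicates 1 and 2, 6 of the 8 genes were above their noninduced mean, and on induced replicate 3, 4 were. The counts on noninduced replicates 1, 2 and 3 were 5, 2 and 5. Of the 28 pairs of genes, 17 had a positive correlation over the 6 arrays, with a median r of 0.15. The highest was that of Adam9 with Adam10 (r = 0.86), in which the groups themselves differ. Next came Adam12 with Adamts1 (r = 0.84), which were highest together on induced replicate 2. The lowest was that of Adam15 with Adam17 (r = -0.98), singled out after its value was seen. These correlations rest on 6 arrays that share their scaling, and they are given with no p.

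**Figure D4:**
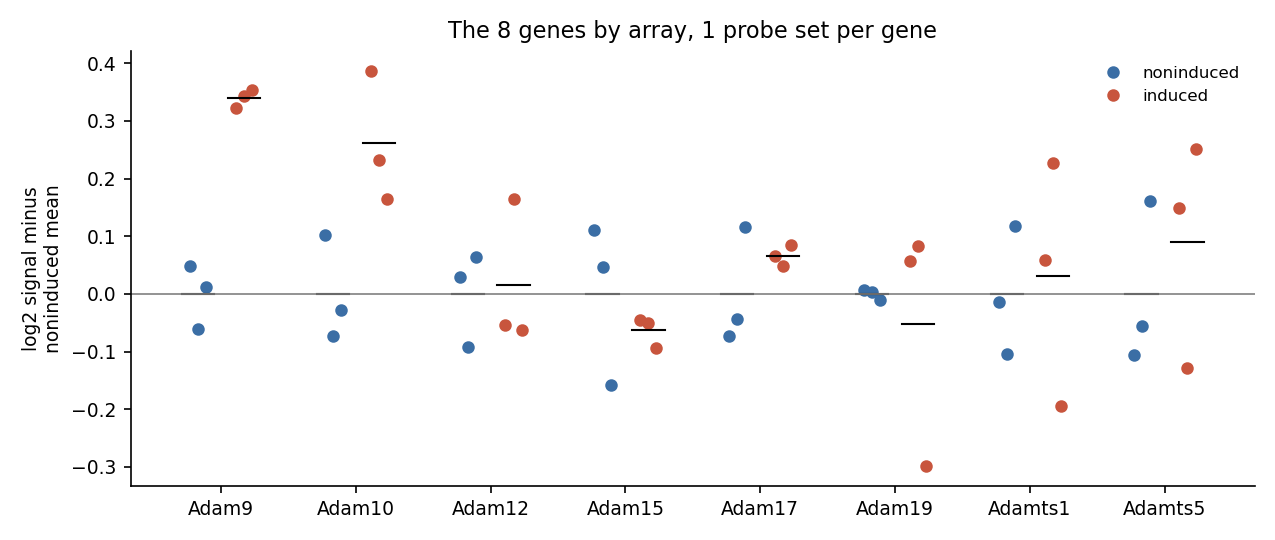
Log2(signal + 16) of each gene's brightest probe set minus the mean of its noninduced arrays, for each array; lines are group means of 3 arrays. The 3 arrays labelled induced sit together near 0.34 for Adam9, whereas for Adam12, Adam19, Adamts1 and Adamts5 they lie on both sides of 0.

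The genes whose readings were most like those of Adam9 over the 6 arrays were Psip1 (r = 0.999), a chromatin-binding protein, Steap2 (0.997), a metal reductase, Aldh18a1 (0.996), an enzyme of proline synthesis, Ccdc43 (0.996) and Tmem33 (0.994). All 5 were higher on the arrays labelled induced, by 0.09 (Ccdc43) to 0.54 (Psip1) on the log2 scale. That direction follows from choosing them by likeness to Adam9, whose groups were apart, and is no separate result. In all, 169 of 19833 probe sets had an r of at least 0.95 with Adam9, or 0.852%. For Adam12 the most similar were Nipa2 (0.998), Gabpa (0.991), Arcn1 (0.990), Ptk2b (0.983) and Hcfc1 (0.977), with differences of 0.02 to 0.04. The corresponding count for Adam12 was 16 of 19832 (0.0807%). The counts for Adam9 and Adam12 are not compared, since the groups were apart for Adam9 and overlapped for Adam12. With 6 arrays such likeness is a description of these readings.

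Genes that act around these proteases were taken from 12 lists: other family members, inhibitors, activating enzymes, partners and substrates. Of their 94 genes above the signal limit, 0 passed an adjusted p of 0.05 in limma, where 0.306% of all 10775 genes did. At an unadjusted p under 0.05 there were 24 (25.5%, against 1719 of all 10775 genes). Their median log2 difference was -0.03 against -0.01 for all genes, and 46.8% were above 0 against 47.8%. The groups did not overlap for 25 of them, 10 higher and 15 lower (26.6%, against 22.4% of all genes). Alternatives gave at most 2: Nid1 and Itgb1 after median centring, Sdc4 with the limit at the 75th percentile or with robust moderation, and Thbs1 without noninduced replicate 1.

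Most other ADAM and ADAMTS genes were dim: 5 of 22 other ADAM genes with a probe set of their own, and 8 of 20 other ADAMTS and ADAMTS-like genes, were above the limit. Their medians were -0.14 and -0.11 (-0.04 and -0.02 after median centring). Adam8, a sheddase known from leukocytes, gave 221 ± 11.3 and 234 ± 26.5 (SD, n = 3 each; log2 0.07, limma adjusted p = 0.765). Adam11, which lacks a working active site, gave 34.9, 48.2 and 29.5 on the noninduced arrays and 19.3, 7.80 and 23.4 on those labelled induced, with groups apart (log2 -0.72, SE 0.244, limma adjusted p = 0.212). Its mean on the arrays labelled induced, 16.8, was under the signal limit, so Adam11 was included only through the noninduced arrays. Adamts4, an aggrecanase like Adamts5, gave 216, 184 and 184 against 177, 119 and 157, also apart (log2 -0.35, SE 0.129, limma adjusted p = 0.249). In the first fluidics run alone Adamts4 was at -0.12. The groups overlapped for Adam4 (-0.31), Adam22 (-0.13), Adamts16 (-0.37), Adamtsl3 (0.14) and Adamtsl4 (0.19).

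Of 5 metalloprotease inhibitors 4 were above the limit. Timp3, the TIMP that inhibits ADAM10, ADAM17 and the aggrecanases, read 1929, 2190.5 and 2209 on the noninduced arrays and 1809, 2023 and 1718 on those labelled induced (log2 -0.19, SE 0.069, limma adjusted p = 0.244). The groups overlapped through the low noninduced replicate 1. Timp1 was apart, at 2212 ± 55.0 and 2009 ± 60.5 (SD, n = 3 each; log2 -0.14, limma adjusted p = 0.212). Timp2, also apart, differed by -0.06, which was 0.03 after median centring, and Reck, a membrane-anchored inhibitor, by 0.21. Of 5 matrix metalloproteases above the limit (median -0.12), the bright membrane-type Mmp14 was at -0.12 and Mmp11 at 0.31, Mmp16 at -0.29 and Mmp24 at 0.07, and none of them passed. Mmp16 was above the limit only through the noninduced arrays (mean 31.4, against 22.9 on those labelled induced).

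Among enzymes that activate ADAM proteases, Furin, which removes the prodomain, was at -0.05 (limma adjusted p = 0.843), 0.04 after median centring, and its relatives Pcsk7 and Pcsk4 were at -0.11 and 0.09. Of 8 partners of ADAM10 and ADAM17 (median -0.06, and 0.04 after median centring), Rhbdf1 and Rhbdf2 encode the iRhoms that bring ADAM17 to the cell surface. Rhbdf1 gave 475 ± 26.4 and 424 ± 13.4 (SD, n = 3 each), with groups apart (log2 -0.16, limma adjusted p = 0.321). Rhbdf2 was dim and uneven at 30.4, 5.66 and 11.2 against 48.2, 22.4 and 45.3, so that its log2 difference of 0.82 had an SE of 0.303 (limma adjusted p = 0.245). Its noninduced mean, 15.8, was under the signal limit, so Rhbdf2 was included only through the arrays labelled induced. The tetraspanins Tspan14 and Tspan5, which escort ADAM10, were at -0.07 and -0.02, the former 0.03 and the latter 0.07 after median centring, and Tspan17 at 0.17. Of 12 cytoplasmic partners of ADAM9, ADAM12, ADAM15 and ADAM19 (median 0.01), Sh3gl1 (endophilin A2) had the most negative difference, with readings of 522, 485 and 522 against 428, 425 and 427 (log2 -0.25, SE 0.064, limma adjusted p = 0.124). Actn1, the actin cross-linker alpha-actinin 1, was at -0.03 (0.06 after median centring), Sh3pxd2a (TKS5), an adaptor of cell protrusions, at -0.10, Snx9, a sorting nexin, at 0.15 and Pik3r1, a regulatory subunit of PI3-kinase, at -0.21, all with overlapping groups.

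Substrates lay on both sides of 0. Of 9 shed growth factors and cytokines 7 were below 0 (median -0.15), among them Hbegf, an EGF receptor ligand (-0.17), and Csf1 (-0.13), both with groups apart, while Kitl was at 0.18. The dim EGF receptor ligands Tgfa and Btc were at -0.45 and 0.25. Of 25 shed receptors and adhesion molecules 14 were above 0 (median 0.05). Sdc4, syndecan 4, which stands in 2 of the lists, came nearest to passing: it read 794, 843 and 772 on the noninduced arrays and 627, 655 and 577 on those labelled induced (log2 -0.37, SE 0.066, limma adjusted p = 0.0553). The ADAM10 substrates Notch1 (-0.29) and Cdh2, N-cadherin (0.08), did not pass. Notch2 and Notch3, both brighter than Notch1, were above 0 (0.07 each, limma adjusted p = 0.649 and 0.801). The bright Cd44 (-0.04, and 0.06 after median centring), Prnp, the prion protein (0.07), and the dim neural adhesion gene L1cam (-0.58) did not pass either.

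Of 9 substrates and cofactors of ADAMTS1 and ADAMTS5 (median 0.11), Thbs1, thrombospondin 1, read 3057, 3522 and 3864 on the noninduced arrays and 2659, 2821 and 2399.9 on those labelled induced (log2 -0.40, SE 0.080, limma adjusted p = 0.0695). Nid1, the basement membrane protein nidogen 1, was apart in the other direction, at 1941 ± 59.5 and 2259 ± 97.2 (SD, n = 3 each; log2 0.22, limma adjusted p = 0.0978). Igfbp5, a binding protein of insulin-like growth factors that ADAM12 cuts, was at 0.20 (limma adjusted p = 0.460). Of 6 integrin subunits reported to bind ADAM disintegrin domains 5 were above 0 (median 0.14). Itga6 (0.25) and Itgb1 (0.25) had groups apart, while those of Itgav (0.04) and Itgb3 (0.39, SE 0.162) overlapped, and none of the 6 passed.

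**Figure D5:**
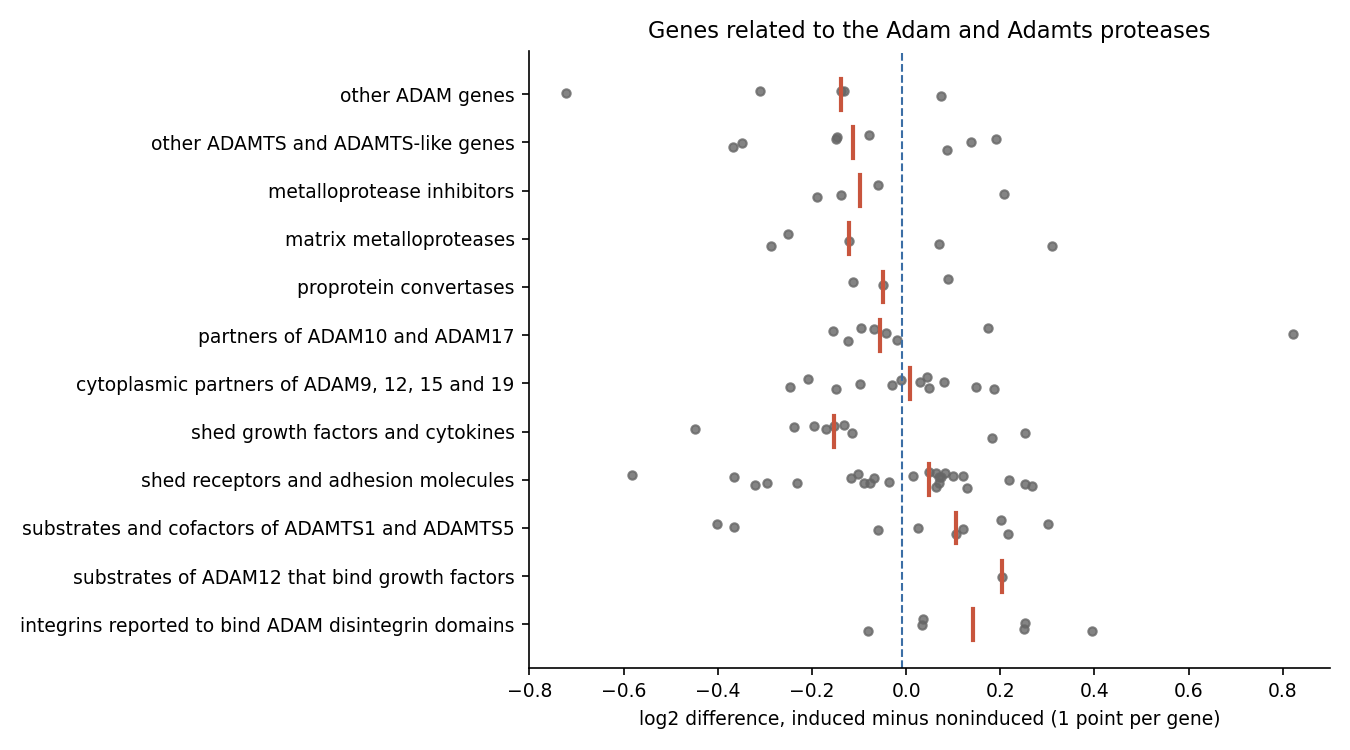
Log2 difference (labelled induced minus noninduced) of each gene above the signal limit in the 12 lists of related genes, 1 point per gene by its brightest probe set. Red bars are list medians, and the dashed line is the median of all 10775 genes (-0.01); list medians ran from -0.15 for shed growth factors and cytokines to 0.20 for the single growth factor binding protein, Igfbp5.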

How the data were processed

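Total RNA of 6 C2C12 samples was labelled with biotin and hybridised to 1 Mouse430_2 array each, per the labels' protocols and the file headers. The deposited values are linear signal intensity per probe set, which the authors made in GCOS 1.1.1, as the submitters' processing notes name it; the sources used here do not give its settings. On every array the 2% trimmed mean was 150.0, so values are relative to the whole array. The deposited instrument records (unit other) hold no expression values and gave the hybridisation times and scan order. The fluidics runs were inferred: a gap of more than 30 minutes between hybridisation times was taken as the start of a new run.

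The 64 control probe sets were set aside. Genes were named from the platform annotation, for the 34945 probe sets with 1 gene; 932 had several and 9160 none listed. RefSeq (GRCm38.p6) changed 0 symbols. Differences were fitted on log2(value + 16), which understates changes of dim probe sets, for the 22518 probe sets whose mean exceeded that of the median probe set, using limma 3.58.1 under R 4.3.3 (eBayes, variance trend on; Benjamini-Hochberg over all 22518, threshold 0.05). Where 1 probe set stands for a gene it is the brightest. The fit was tested on simulated data. The series states that samples of a group are separate biological samples, so the spread is between such samples.

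The members, lists and alternatives were chosen with earlier results of these data known. Named are all members, Itga7, and of each list genes past the threshold, the 3 brightest and the 2 with the largest difference. Notch1 was added after its values were seen, and Notch2 and Notch3 were added beside it. For Adam9 and Adam12 the 5 most similar genes are named. Alternatives covered normalization, signal limit, pseudocount, moderation, blocks, probe sets averaged by gene and each array left out.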

Additional observations from a re-analysis of the deposited data

How the results depend on the processing

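The count of 45 probe sets past the threshold became 306 after median centring (294 higher), 102 with the signal limit at the 75th percentile, 74 with robust moderation, 1 with no signal limit, and 0 without a variance trend. It was also 0 with a block for the fluidics run and in the first run alone, where induced replicate 1 is the only treated array and is assumed to vary like the noninduced arrays. With the replicate block it was 5; the numbers did not pair the arrays, since deviations of same-numbered arrays had correlations of 0.01, -0.06 and -0.01. Leaving out 1 array gave 0 (without induced replicate 1) to 50 (without noninduced replicate 1). At an unadjusted p under 0.05 the counts of 0 were 2817 without the trend, 1923 with the run as a block, 1976 in the first run and 2597 without induced replicate 1, against 3306 in the fit reported. The related genes past the threshold, 0 of 94, became 2 after median centring, 1 with the 75th percentile and 1 with robust moderation, and 0 to 1 when 1 array was left out. The median of the 8 genes was 0.14 after median centring and 0.0085 (without induced replicate 2) to 0.11 when 1 array was left out, highest without noninduced replicate 3. Of 142 values of single genes, 138 moved by less than the spread within groups. Adam9, Adam10 and Adam17 kept their sign in all 18 alternatives. Both counts include alternatives that cannot move a single gene's difference: those of the signal limit, the moderation and the replicate block. The run as a block and the first run alone gave the same value for each gene. Under the 75th percentile Adamts1 and Adamts5 had no value.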
